A study of Rattus norvegicus with 15 samples.

Results

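Ppara, Ppargc1a, Lpin1, Pdk4, Fgf21 and Angptl4 are 6 genes of the hepatic response to fasting, and they were followed here in the livers of control rats, rats with cirrhosis and rats with cirrhosis that were given eplerenone. The set was selected on measured values: Ppara, Lpin1 and Pdk4 were picked because they were lower in cirrhosis than in control and higher again with eplerenone. Their differences between groups are therefore given as a description with no test. Ppargc1a, Fgf21 and Angptl4 were added for their function and were tested. The 6 genes are 6 of 32623 rows of the count table, and all 6 were among the 14417 genes that passed the filter on low counts.

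The study asked how blocking the mineralocorticoid receptor with eplerenone alters gene expression in the cirrhotic liver. All rats were male Wistar rats weighing 75 to 100 g at the start. In the cirrhosis group, CCl4, a solvent that injures hepatocytes, was inhaled for 12 weeks while phenobarbital was in the drinking water at 0.35 g/L. The cirrhosis & eplerenone group had the same exposure plus eplerenone at 100 mg/kg from week 8 to the end of CCl4 inhalation, given in a hazelnut spread, and livers of CCl4-treated rats were removed 7 to 10 days after the last exposure. The control group received no CCl4, phenobarbital or eplerenone. In comparisons with control, effects of phenobarbital and of CCl4 therefore cannot be told apart. Whether the other groups ate the spread, and whether rats were fed or fasted or at what hour livers were removed, is not given in the sources used here, so effects of the spread and of eplerenone cannot be told apart. According to the study, rats were chosen for sequencing by how well cirrhosis induction, eplerenone treatment or both had worked in them, so the groups are not random samples of the treated animals. The groups analysed held 4 control, 5 cirrhosis and 5 cirrhosis & eplerenone rats, and control replicate 1 was not analysed here.

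PPAR alpha, encoded by Ppara, is a nuclear receptor that binds DNA together with a retinoid X receptor and switches on genes of fatty acid oxidation and ketogenesis when fatty acids reach the fasting liver. PGC-1 alpha, the product of Ppargc1a, is a coactivator of PPAR alpha, and lipin 1, the product of Lpin1, acts both as a phosphatidate phosphatase in the cytoplasm and as a coactivator of the same complex in the nucleus. Pdk4, Fgf21 and Angptl4 are targets of PPAR alpha: the kinase PDK4 turns off the pyruvate dehydrogenase complex and so spares glucose, FGF21 is a hormone that the fasting liver releases, and ANGPTL4 inhibits lipoprotein lipase.

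Counted reads ranged from 16157491 to 21574767 per liver, and 3 counts stood for 0.121 to 0.191 FPM. FPM are counted reads per 1000000 reads of the library size after scaling by trimmed mean of M-values (TMM), with no correction for gene length, so levels are compared between rats and not between genes. Defining hepatocyte genes were abundant in every liver, with a summed level of 186012 to 215209 FPM in control, 142710 to 200211 FPM in cirrhosis and 111617 to 203835 FPM in cirrhosis & eplerenone for 10 genes. Alb alone had 115540 to 130558 FPM in control. The mean of log2 FPM, each gene centred on its own mean, was -0.63 in cirrhosis & eplerenone replicate 3 against -0.13 to 0.13 in the others of that group. It was -0.51 in cirrhosis replicate 4 against -0.03 to 0.05 in the other cirrhotic rats. Markers of cholangiocytes stood apart in a pair of rats. Their mean centred log2 FPM over 7 genes was 0.004 in cirrhosis replicate 5 against 0.70 to 1.27 in the other cirrhotic rats, and 1.14 in cirrhosis & eplerenone replicate 3 against -0.36 to 0.60 in the others of that group. Stellate cell and myofibroblast markers set the same rats apart. By the same measure they were at -0.60 in cirrhosis replicate 5 against 0.20 to 1.09 in the other cirrhotic rats. In cirrhosis & eplerenone replicate 3 they were at 1.02 against -0.21 to 0.51 in the others. The study also tabulated group means over 4 rats per group, which match the means here without exactly these rats. Why they were left out is not given in the sources used here. Counts and values with 4 rats per group are given beside results that they change. Whole liver RNA was measured, so fewer cells of a type and less RNA per cell cannot be told apart.

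The promoters of Pdk4 and Fgf21 are shown as examples of target genes, whose products are the output of the switch. Entries of RefSeq on the build GRCr8 matched 6 of 6 genes, whereas the counts were made on rn6, so no position is carried between the builds. The 250 bases upstream of the start of Pdk4 (chr4:34568330-34568579, minus strand) and of Fgf21 (chr1:105221377-105221626, minus strand) read 5′ to 3′ as follows, with capitals for an E-box (CACGTG) and a TATA box (TATAAA).
Pdk4: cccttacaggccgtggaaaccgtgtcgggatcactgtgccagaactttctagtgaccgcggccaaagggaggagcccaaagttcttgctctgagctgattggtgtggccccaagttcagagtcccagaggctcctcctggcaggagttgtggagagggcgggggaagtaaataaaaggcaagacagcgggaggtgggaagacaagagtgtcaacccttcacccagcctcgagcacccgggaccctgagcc
Fgf21: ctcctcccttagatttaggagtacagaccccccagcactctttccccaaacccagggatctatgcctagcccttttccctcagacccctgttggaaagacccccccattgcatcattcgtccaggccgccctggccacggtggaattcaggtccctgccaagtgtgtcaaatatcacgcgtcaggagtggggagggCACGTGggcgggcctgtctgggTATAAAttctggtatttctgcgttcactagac
The coactivator genes are represented by 30 bases around the motif found in each, with the motif in capitals: a cAMP response element (TGACGTCA) 181 to 174 bases upstream of Ppargc1a (chr14:63634116-63634145, plus strand), and a corticosteroid receptor half-site (TGTTCT) 187 to 182 bases upstream of Lpin1 (chr6:45109112-45109141, minus strand).
Ppargc1a: ctgcctcggagTGACGTCAggagtttgagc
Lpin1: gggggacccatcTGTTCTatgctgaatccg
On both strands of 27457 rat promoter windows of the same length, the E-box occurred in 5.79%, the TATA box in 13.1%, the cAMP response element in 1.70% and the corticosteroid half-site in 17.1%. The half-site of nuclear receptors such as PPAR alpha (AGGTCA) occurred in 13.7% of all windows and in none of the 6, the direct repeat of it with 1 base between in 0.0546% and in none of the 6, and the FoxO core (GTAAACA) in 3.25% and in none of the 6. The windows of Pdk4 and Ppara held none of the motifs searched, and that of Ppara had a GC content of 76%, against a median of 52.0% over all windows. The window of Angptl4, not printed, held a TATA box. The windows of Ppara, Ppargc1a, Lpin1 and Angptl4 lie upstream of one annotated start but overlap the annotated span of their own gene. These matches describe letters in the windows and do not show binding.

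Ppara, the receptor itself, was low in every cirrhotic liver. Control replicates 2 to 5 had 10.7, 7.57, 8.73 and 8.71 FPM, and cirrhosis replicates 1 to 5 had 0.832, 2.41, 1.46, 2.87 and 3.33 FPM. In cirrhosis & eplerenone replicates 1 to 5, Ppara had 9.66, 15.3, 6.60, 7.39 and 2.19 FPM. The ranges of control and cirrhosis did not overlap, and of the rats given eplerenone all but replicate 5 were above every rat of the cirrhosis group. The level in cirrhosis was 4.08-fold lower than in control (log2FC -2.03, SE 0.45), and cirrhosis & eplerenone differed from cirrhosis by a log2FC of 1.91 (SE 0.44). Against control, cirrhosis & eplerenone differed by -0.12 (SE 0.44), a sign that turned to 0.17 when libraries were scaled by total counts and to 0.12 without cirrhosis & eplerenone replicate 5.

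**Figure D1:**
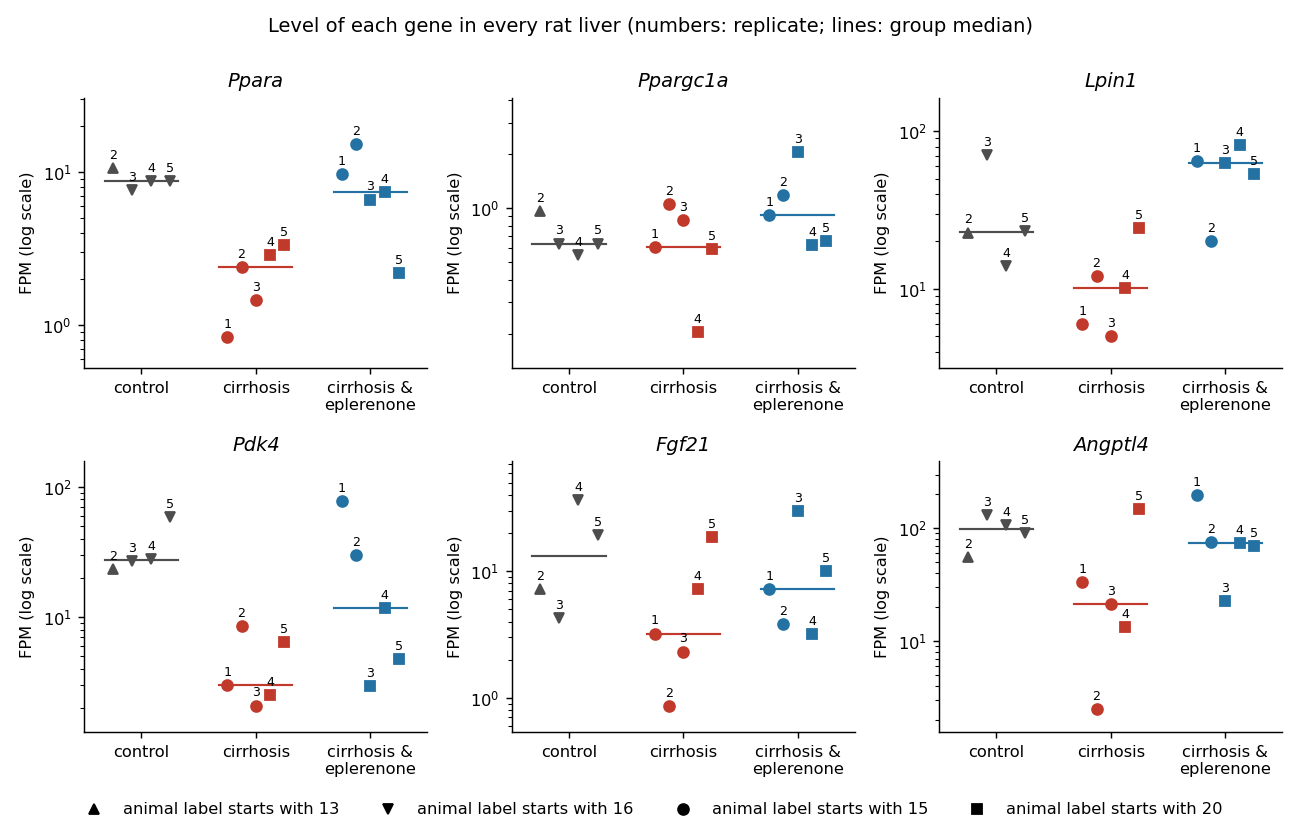
Level of the 6 genes in every rat, in FPM on a log axis, with points numbered by replicate, shapes for the number at the start of the animal label and lines for group medians. Ppara and Pdk4 have no cirrhosis rat within the control range, while single rats such as cirrhosis replicate 5 for Angptl4 (148 FPM) stand far from their group.

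Ppargc1a, the coactivator that glucagon induces in the fasting liver, was near the limit of counting in all groups and showed no such pattern. It had 0.965, 0.636, 0.549 and 0.636 FPM in control replicates 2 to 5, and 0.610, 1.06, 0.863, 0.205 and 0.595 FPM in cirrhosis replicates 1 to 5. Cirrhosis & eplerenone replicates 1 to 5 had 0.920, 1.19, 2.06, 0.621 and 0.656 FPM. All ranges overlapped. The log2FC was -0.06 (SE 0.51, adjusted p = 0.947 by the quasi-likelihood test of edgeR) for cirrhosis against control, 0.70 (SE 0.47, adjusted p = 0.456) for cirrhosis & eplerenone against cirrhosis and 0.65 (SE 0.50, adjusted p = 0.526) against control.

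Lpin1, the lipin that also acts as a coactivator, was below most controls in cirrhosis and above the cirrhosis group in most rats given eplerenone. Control replicates 2 to 5 had 22.8, 70.8, 14.04 and 23.5 FPM, cirrhosis replicates 1 to 5 had 5.99, 12.2, 5.02, 10.2 and 24.3 FPM, and cirrhosis & eplerenone replicates 1 to 5 had 64.3, 20.1, 62.8, 81.7 and 53.8 FPM. Control and cirrhosis overlapped through cirrhosis replicate 5, and all rats given eplerenone except replicate 2 were above the whole cirrhosis group. The log2FC was -1.51 (SE 0.51) for cirrhosis against control, 2.29 (SE 0.50) for cirrhosis & eplerenone against cirrhosis and 0.79 (SE 0.51) for cirrhosis & eplerenone against control. Control replicate 3 carried much of the control level: without it, the difference of cirrhosis from control was -0.81. The difference of cirrhosis & eplerenone from control was 1.49 without it and 0.53 without control replicate 4.

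Pdk4, the brake on the pyruvate dehydrogenase complex, had the widest gap between control and cirrhosis among the 6 genes and the widest scatter with eplerenone. Its level was 23.3, 27.2, 28.1 and 59.0 FPM in control replicates 2 to 5, and 2.995, 8.53, 2.10, 2.51 and 6.49 FPM in cirrhosis replicates 1 to 5. Cirrhosis & eplerenone replicates 1 to 5 had 78.2, 30.2, 2.95, 11.9 and 4.75 FPM. No cirrhotic rat reached the control range, and of the rats given eplerenone, replicates 1 and 2 were at or above the lowest control, replicate 4 lay between the groups, and replicates 3 and 5 lay inside the cirrhosis range. The level in cirrhosis was 7.56-fold lower than in control (log2FC -2.92, SE 0.77). Cirrhosis & eplerenone differed from cirrhosis by a log2FC of 2.49 (SE 0.74), which was 1.42 without cirrhosis & eplerenone replicate 1, and from control by -0.43 (SE 0.72), which was -1.48 without that rat and -0.04 without control replicate 5.

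Fgf21, the fasting hormone, varied widely within every group. It had 7.24, 4.28, 36.8 and 19.3 FPM in control replicates 2 to 5, 3.22, 0.857, 2.32, 7.28 and 18.4 FPM in cirrhosis replicates 1 to 5, and 7.21, 3.82, 30.03, 3.16 and 10.1 FPM in cirrhosis & eplerenone replicates 1 to 5. All groups overlapped. The log2FC was -1.40 (SE 0.83, adjusted p = 0.224 by edgeR) for cirrhosis against control, 0.77 (SE 0.79, adjusted p = 0.622) for cirrhosis & eplerenone against cirrhosis and -0.63 (SE 0.82, adjusted p = 0.744) for cirrhosis & eplerenone against control, the last of which turned to 0.08 without control replicate 4. Without cirrhosis & eplerenone replicate 3 the difference from cirrhosis turned to -0.09, and without cirrhosis replicate 5 it was 1.68. Cirrhosis replicate 5 also decided the call of cirrhosis against control: without it the log2FC was -2.31 (SE 0.81), and the adjusted p was 0.0427 by edgeR and 0.0292 by DESeq2. That rat had the highest Fgf21 of its group, so its removal widens the difference by itself.

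Angptl4, which keeps lipoprotein lipase from clearing triglycerides, was likewise set by 1 cirrhotic rat. Control replicates 2 to 5 had 56.2, 130, 108 and 90.3 FPM. Cirrhosis replicates 1 to 4 had 33.4, 2.49, 21.3 and 13.2 FPM, all below control, and replicate 5 had 148 FPM, above control. Cirrhosis & eplerenone replicates 1 to 5 had 196, 75.3, 22.6, 74.5 and 69.1 FPM. The log2FC was -1.14 (SE 0.79, adjusted p = 0.299 by edgeR) for cirrhosis against control, 1.00 (SE 0.75, adjusted p = 0.505) for cirrhosis & eplerenone against cirrhosis and -0.13 (SE 0.79, adjusted p = 0.952) for cirrhosis & eplerenone against control. Without cirrhosis replicate 5, the first was -2.45 (SE 0.66, adjusted p = 0.0127 by edgeR and 0.00344 by DESeq2). With 4 rats per group, cirrhosis & eplerenone exceeded cirrhosis by 2.54 (SE 0.59, adjusted p = 0.0256 by edgeR and 0.000188 by DESeq2). Neither single omission gave that second call. The rats left out had the highest Angptl4 of the cirrhosis group (replicate 5) and the lowest with eplerenone (replicate 3). Their removal widens the group differences by itself, so these p-values are a description. The difference of cirrhosis & eplerenone from control turned to 0.11 without cirrhosis & eplerenone replicate 3.

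**Figure D2:**
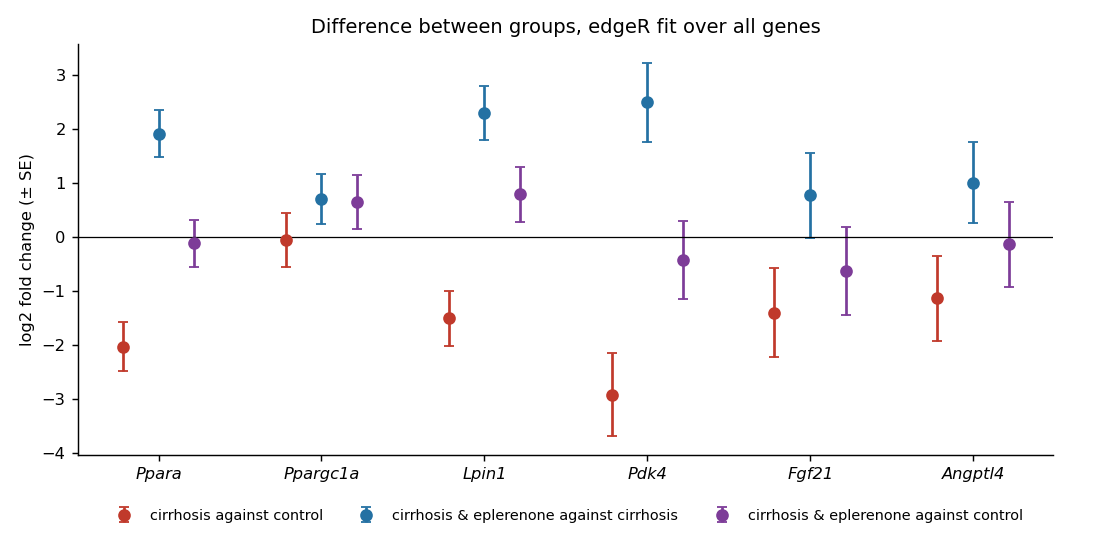
Log2 fold change of each gene in the 3 comparisons, with the standard error computed from the edgeR test statistic as bars. The values of Ppara, Lpin1 and Pdk4 chose the set. The bars of Ppargc1a cross or approach 0 in all comparisons, and its log2FC in cirrhosis against control is -0.06.

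The 3 comparisons share rats, so their agreement across genes is not evidence in itself. The order of rats differed between the genes within the group given eplerenone. Replicate 3 had high Lpin1 (62.8 FPM), the highest Fgf21 (30.03 FPM) and Ppargc1a (2.06 FPM) and the lowest Pdk4 (2.95 FPM) of its group, while replicate 2 had the highest Ppara (15.3 FPM) with the lowest Lpin1 (20.1 FPM). Likeness of pattern was measured as the root mean square difference of log2 FPM, each gene centred on its own mean, over 14 rats. By this measure Ppara ranked 151 among 12293 genes for Pdk4 and Lpin1 ranked 5057, while for Ppara, Pdk4 ranked 3404 and Lpin1 4779. These genes were picked for like differences between the groups, which enter the measure, so the ranks are a description only. The genes most like Ppara were Tet3, Styx, Aff1, Syde2 and Cecr2, with differences of 0.386 to 0.441. Those most like Lpin1 were Acly, Acaca, Pklr, Zfp354a and Ccdc6 (0.643 to 0.784), the first 3 of which belong to the list of fed-state lipogenic and glycolytic genes. Those most like Pdk4 were AABR07071765.1, Masp1, Acadsb, Tmed5 and A1cf (0.711 to 0.781). Over the 10 CCl4-treated rats alone, Wdfy3, Tet3, Styx, Aff1 and Camk1d were nearest to Ppara, and RT1.M2, Acly, Siglec5, AABR07030544.1 and Sema6a to Lpin1. For Pdk4, LOC500948, Klf9, Rxra and Mpv17l were among the nearest there, and none of its 5 nearest genes was shared between the sets of rats.

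Animal labels of CCl4-treated rats start with 15 or 20, a number whose meaning is not stated and which crosses the eplerenone treatment. With 15 there were 3 cirrhosis rats and 2 given eplerenone, and with 20 there were 2 and 3. Groups this small can separate by chance, and how many of all genes do so was not counted. Ppara, Lpin1 and Pdk4 were also picked for a difference in this direction, so their separation is a description only. Among rats with 15, every rat given eplerenone was above every rat of the cirrhosis group for Ppara, Lpin1, Pdk4, Fgf21 and Angptl4. The mean log2 differences were 2.99, 2.31, 3.64, 1.43 and 3.31. Among rats with 20 the same differences were 0.60, 2.04, 0.44, -0.23 and 0.14, and the groups were apart for Lpin1 and for Ppargc1a (1.18). Of the 6 genes, Lpin1 was the one whose treatment groups did not overlap within either number. The eplerenone difference with 20 minus that with 15 was -2.98 (SE 1.01) for Pdk4, -2.13 (SE 0.79) for Ppara and -0.45 (SE 0.75) for Lpin1, given with no test. It was -3.32 (SE 1.43, adjusted p = 0.404 by edgeR) for Angptl4, and adjusted p-values were 0.645 for Fgf21 and 0.600 for Ppargc1a. By edgeR, the only tool run for it, 0 of 13628 protein coding genes passed an adjusted p of 0.05 for this dependence, and 1644 had an unadjusted p below 0.05. The number itself was a difference of 1.99 for Fgf21 (SE 0.60, adjusted p = 0.443), -1.60 for Pdk4 (SE 0.70, no test) and 0.89 for Lpin1 (SE 0.37, no test), each for 20 against 15. Control labels start with 13 or 16, so for comparisons with control the number and the treatment cannot be told apart.

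**Figure D3:**
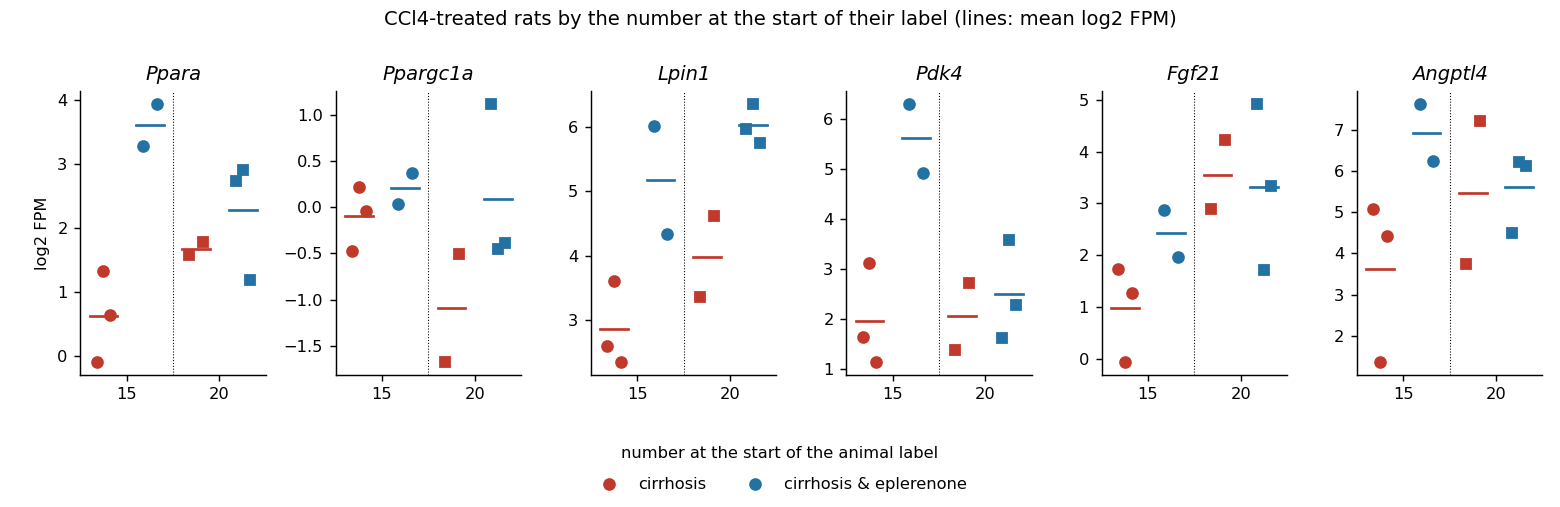
Log2 FPM of the 6 genes in CCl4-treated rats, split by the number at the start of the animal label, with points for rats and lines for means. Lpin1 is separated by treatment on both sides, by 2.31 with 15 and by 2.04 with 20, whereas Pdk4 differs by 3.64 and 0.44. Each group holds 2 or 3 rats, and both genes were picked for a difference between these treatments.

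The genes around the switch were described from 10 lists with 166 genes, of which 158 had a row and 152 protein coding genes were tested. A gene was called when its adjusted p was below 0.05 in both edgeR and DESeq2. In cirrhosis against control, 28 genes of the lists were called lower and 6 higher. Of all 13628 protein coding genes, 6.72% were called lower and 13.8% higher. Scaling by total counts moved the median log2FC of all genes from -0.01 to 0.28, and the split of the lists became 16 lower and 15 higher against 2.47% and 21.7% of all genes. In cirrhosis & eplerenone against control, 3 genes of the lists were called lower and 3 higher, against 0.829% and 4.5% of all genes.

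PPAR alpha target genes, the longest of the lists, held the most genes called lower. Of 39 tested, 12 were called lower and 2 higher in cirrhosis, against 6.72% and 13.8% of all genes, with a median log2FC of -0.70 against -0.01. With total counts 11 were called lower and 3 higher, against 2.47% and 21.7% of all genes. Cyp4a2, a fatty acid omega-hydroxylase, went from 565 to 1724 FPM in control to 3.23 to 172 FPM in cirrhosis (log2FC -4.24, SE 1.23, adjusted p = 0.0271 by edgeR). Its paralogs are close in sequence and multi-mapped reads entered the counts, so its level is uncertain. Fabp1, the fatty acid binding protein of hepatocytes, was lower by a log2FC of -2.001 (SE 0.39, adjusted p = 0.00375), and Acsl1, which activates fatty acids to acyl-CoA, by -1.63 (SE 0.39, adjusted p = 0.0116). Pex11a, a factor of peroxisome division, was lower by -1.55 (SE 0.38, adjusted p = 0.0119). The genes called higher were Ucp2, a carrier of the inner mitochondrial membrane (log2FC 1.47), and Txnip, an inhibitor of thioredoxin (0.99), named after their values were seen.

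With eplerenone, none of the 39 targets was called by edgeR and DESeq2 together. In cirrhosis against control, which shares the cirrhosis rats, 33 of 39 had been below 0. A log2FC above 0 with eplerenone was seen for 34 of 39 (list median 0.36), so the 51.0% of all genes is not a like baseline. The smallest p-values belonged to Cpt1a, the entry enzyme of mitochondrial fatty acid oxidation (log2FC 1.47, SE 0.51, adjusted p = 0.312 by edgeR), and to Cyp4a2 (3.11, SE 1.15, adjusted p = 0.314). Cyp4a2 had 240, 1984, 10.0, 70.6 and 123 FPM in cirrhosis & eplerenone replicates 1 to 5, so replicate 2 lay above the control range, replicate 1 between control and cirrhosis, and replicates 3, 4 and 5 inside the range of cirrhosis. Against control, Fabp1 was still called lower (log2FC -1.70, SE 0.39, adjusted p = 0.0195) and Ucp2 called higher (1.49). The list as a whole placed cirrhosis replicate 5 and cirrhosis & eplerenone replicate 3 at odds with their groups, with mean centred log2 FPM of 0.17 and -0.79. Cholangiocyte markers took the opposite order in these rats, and their part in the result was not tested.

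**Figure D4:**
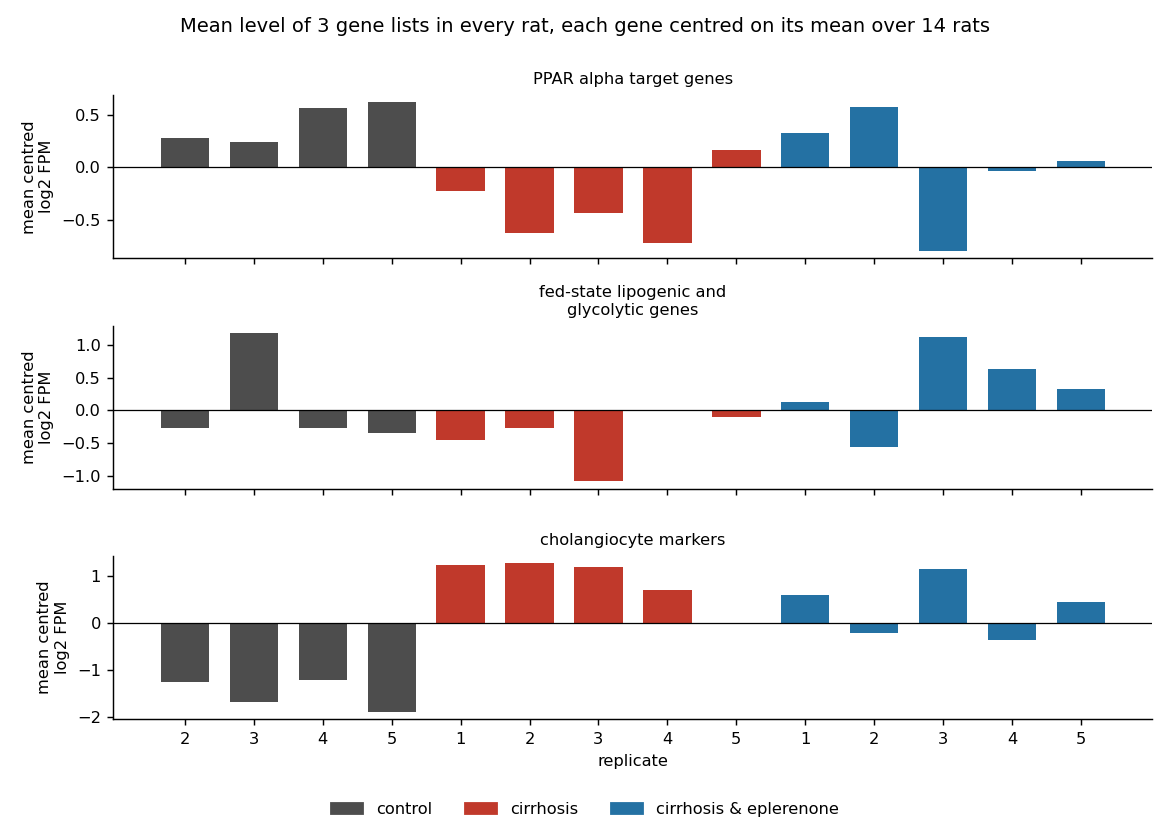
Mean of log2 FPM over the genes of 3 lists in every rat, each gene centred on its mean over 14 rats, with bars from 0 coloured by group. Cirrhosis & eplerenone replicate 3 is at -0.79 for PPAR alpha target genes and at 1.14 for cholangiocyte markers, opposite to replicate 2 at 0.57 and -0.21.

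Over all lists, cirrhosis & eplerenone against cirrhosis gave 0 called genes of 152. At an unadjusted p below 0.05 by edgeR there were 31 higher and 2 lower, and DESeq2 alone called 2. Of all protein coding genes, 0.0147% were called higher and 0% lower, and 6.84% had an unadjusted p below 0.05 with a higher and 7.62% with a lower mean. With 4 rats per group, 28 of 150 genes of the lists were called higher and 1 lower, against 4.42% and 4.8% of all genes, and 12 of the 28 were PPAR alpha targets. In the same rats, 48 genes of the lists were called lower and 11 higher in cirrhosis against control, against 14.9% and 19.7% of all genes. Without cirrhosis replicate 5 alone, 14.1% of all genes were called lower in cirrhosis, Fgf21 and Angptl4 among them. Cirrhosis replicate 5 had the highest mean level of PPAR alpha targets in its group, and cirrhosis & eplerenone replicate 3 the lowest in its own. Leaving these rats out widens that list's differences by itself, so counts without them are a description. For eplerenone against cirrhosis, shares over all genes are not a like baseline. Of the 152 genes, 110 were already below 0 in cirrhosis against control, which shares the cirrhosis rats.

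Among partners and coregulators of PPAR alpha, 4 of 18 genes were called lower in cirrhosis and none higher. They were Ep300, an acetyltransferase (log2FC -2.22, SE 0.72, adjusted p = 0.0414 by edgeR), Nrip1, a corepressor (-0.87, SE 0.22, adjusted p = 0.0148), Hnf4a, a receptor that defines hepatocytes (-0.81, SE 0.24, adjusted p = 0.0290), and Ncor1, another corepressor (-0.64, SE 0.19, adjusted p = 0.0305). Ep300 was at no more than 1.75 FPM in any rat. All 4 calls were lost with total counts, where 0 of 18 genes were called lower and 1 higher. With 4 rats per group 7 were called lower. Of all genes, 6.72% were called lower and 13.8% higher in the main fit. These shares were 2.47% and 21.7% with total counts, and 14.9% and 19.7% with 4 rats per group. Rxra, the DNA-binding partner, had 29.7 to 97.7 FPM in control, 9.01 to 35.4 FPM in cirrhosis and 14.05 to 130 FPM in cirrhosis & eplerenone. It did not pass the test in cirrhosis (log2FC -1.52, SE 0.56, adjusted p = 0.0634) or with eplerenone (1.75, SE 0.54, adjusted p = 0.312), and with 4 rats per group the latter was 2.27 with an adjusted p of 0.0211 by edgeR. Ncoa2, a coactivator, had 2.20 (SE 0.69, adjusted p = 0.312) with eplerenone against cirrhosis. Nrip1 stayed called lower in cirrhosis & eplerenone against control (-1.14, SE 0.22).

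In the pyruvate dehydrogenase list, 3 of 12 genes were called lower in cirrhosis and none higher. Both a phosphatase that reactivates the complex and a kinase that inactivates it were among them: Pdp2 (log2FC -1.63, SE 0.45, adjusted p = 0.0212 by edgeR), Pdk1 (-0.73, SE 0.20, adjusted p = 0.0208) and Pdha1, the catalytic subunit (-1.22, SE 0.31, adjusted p = 0.0139). With total counts 2 of 12 were called lower, without Pdk1, and 1 higher. With 4 rats per group 5 were called lower and 1 higher. Over all genes, 6.72% were called lower and 13.8% higher in the main fit. The shares were 2.47% and 21.7% with total counts, and 14.9% and 19.7% with 4 rats per group. The other kinases did not pass: Pdk2 had -0.69 (SE 0.33, adjusted p = 0.139) and Pdk3 had 1.38 (SE 0.52, adjusted p = 0.0710). With eplerenone against cirrhosis, Pdk2 differed by 0.90 (SE 0.31), Pdk3 by -0.17 (SE 0.46), Pdhb, another subunit of the complex, by 0.72 (SE 0.22) and Pdp2 by 1.30 (SE 0.43), with adjusted p-values of 0.312, 0.870, 0.312 and 0.312.

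The other lipins had log2FC above 0 in cirrhosis. Lpin2 was called higher in cirrhosis, from 23.1 to 39.6 FPM in control to 45.2 to 79.4 FPM (log2FC 0.73, SE 0.23, adjusted p = 0.0391 by edgeR), and remained higher in cirrhosis & eplerenone against control (0.94, SE 0.23, adjusted p = 0.0290). Lpin3 differed by 0.19 (SE 0.18, adjusted p = 0.462). Of 17 genes of the glycerolipid list, 3 were called lower and 3 higher in cirrhosis, against 6.72% and 13.8% of all genes. The list's median was 0.04. Plpp3, a lipid phosphate phosphatase, was lower by a log2FC of -1.28 (SE 0.31), Dgat2, which makes triglycerides, by -1.06 (SE 0.23), and Abhd5, an activator of triglyceride breakdown, by -0.98 (SE 0.27), while Plpp2 was higher by 1.08 (SE 0.26).

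Lipoprotein lipase, the enzyme that ANGPTL4 inhibits, was higher in both CCl4-treated groups. Lpl had 4.16 to 12.7 FPM in control, 26.7 to 95.2 FPM in cirrhosis and 15.4 to 120 FPM in cirrhosis & eplerenone. It was called higher in cirrhosis (log2FC 3.21, SE 0.59, adjusted p = 0.00294 by edgeR) and in cirrhosis & eplerenone against control (2.56, SE 0.57, adjusted p = 0.0188). Lipc, hepatic lipase, was called lower in cirrhosis by a log2FC of -0.70 (SE 0.23), a call lost with total counts (-0.43). Angptl8 had -0.09 (SE 0.57, adjusted p = 0.922). Of 5 adipocyte markers, Lep, Plin1 and Retn were at 0 in every control and at no more than 0.162 FPM in any rat. Adipoq reached no more than 0.364 FPM. The summed level was 5.38 to 13.98 FPM in control, 6.37 to 23.5 FPM in cirrhosis and 7.51 to 23.2 FPM in cirrhosis & eplerenone. Nearly all of it was 1 gene, Cfd, with 5.38 to 13.98, 6.32 to 23.5 and 7.26 to 23.2 FPM. The part of adipocytes in the level of Lpl was not tested. Of FGF21 receptors and partners, 0 of 4 tested genes were called by edgeR and DESeq2 in cirrhosis against control and 0 had an unadjusted p below 0.05, with Fgfr4, the main hepatocyte receptor, at -0.35 (SE 0.25, adjusted p = 0.318). Fgfr4 was called lower with 4 rats per group (-0.63, SE 0.16, adjusted p = 0.00825 by edgeR) and without cirrhosis replicate 5 alone (-0.65, SE 0.18, adjusted p = 0.0164). Klb, the coreceptor, was not analysed here.

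Of the upstream fasting signals, few were called. Over all genes, 6.72% were called lower and 13.8% higher in cirrhosis against control. Irs1, which relays insulin signals (log2FC -1.51, SE 0.45, adjusted p = 0.0301 by edgeR) and Insr, the insulin receptor (-1.04, SE 0.33, adjusted p = 0.0372), were called lower in cirrhosis among 16 genes, both calls being lost with total counts, and Foxo3 had the smallest p with eplerenone against cirrhosis (1.43, SE 0.44, adjusted p = 0.312). Of 9 fasting-induced genes of glucose and amino acid metabolism, none was called in cirrhosis against control by edgeR and DESeq2, and 3 had an unadjusted p below 0.05 by edgeR. With 4 rats per group Pck1 was called lower (-0.77), and Igfbp1 (1.90) and Ppp1r3g (2.75) were called higher, the latter pair also without cirrhosis replicate 5 alone and with total counts. Igfbp1 and Ppp1r3g were named after their values were seen. Of all genes, 14.9% were called lower and 19.7% higher with 4 rats per group, and 21.7% higher with total counts. Pck1, the rate-limiting enzyme of gluconeogenesis, had 2220 to 4167 FPM in control, 1889 to 2426 FPM in cirrhosis and 854 to 5212 FPM in cirrhosis & eplerenone (-0.73, SE 0.37, adjusted p = 0.165, in cirrhosis against control).

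Fed-state lipogenic and glycolytic genes had the highest list median with eplerenone. Of 11 genes, Srebf1, the master regulator of lipogenesis, was called lower in cirrhosis (log2FC -0.89, SE 0.26, adjusted p = 0.0268 by edgeR), a call lost with total counts. With 4 rats per group 3 genes were called lower. In cirrhosis against control, which shares the cirrhosis rats, 9 of 11 were below 0. In eplerenone against cirrhosis, 10 of 11 had a log2FC above 0 (median 1.02), so the 51.0% of all genes is not a like baseline. Acaca and Acly, enzymes of fatty acid synthesis, gave 2.17 (SE 0.53) and 1.44 (SE 0.36) in that comparison, both with an adjusted p of 0.312 by edgeR, and these were the pair of genes that DESeq2 alone called, with adjusted p-values of 0.0138 and 0.0251. Acaca had 25.8 to 68.0 FPM with eplerenone against 1.13 to 18.3 FPM in cirrhosis, with no overlap, and Acly had 168 to 460 FPM against 68.4 to 164 FPM, also with none. The highest mean centred levels of the list were in control replicate 3 (1.18) and cirrhosis & eplerenone replicate 3 (1.12), rats that also had Lpin1 of 70.8 and 62.8 FPM. Lpin1 was higher in cirrhosis & eplerenone replicates 4 (81.7 FPM) and 1 (64.3 FPM), where the list was at 0.63 and 0.13. Of 17 clock genes, Clock was called lower in cirrhosis (-0.86, SE 0.23, adjusted p = 0.0213), a call lost with total counts. With 4 rats per group 3 of 15 clock genes were called lower. Over all genes, 6.72% were called lower in the main fit and 14.9% with 4 rats per group. Hlf and Nr1d1 had 1.24 (SE 0.46) and 1.73 (SE 0.77) with eplerenone against cirrhosis, with adjusted p-values of 0.315 and 0.330. Nr1d1 ranged from 3.93 to 70.3 FPM among controls, and its part in the other values was not tested.

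**Figure D5:**
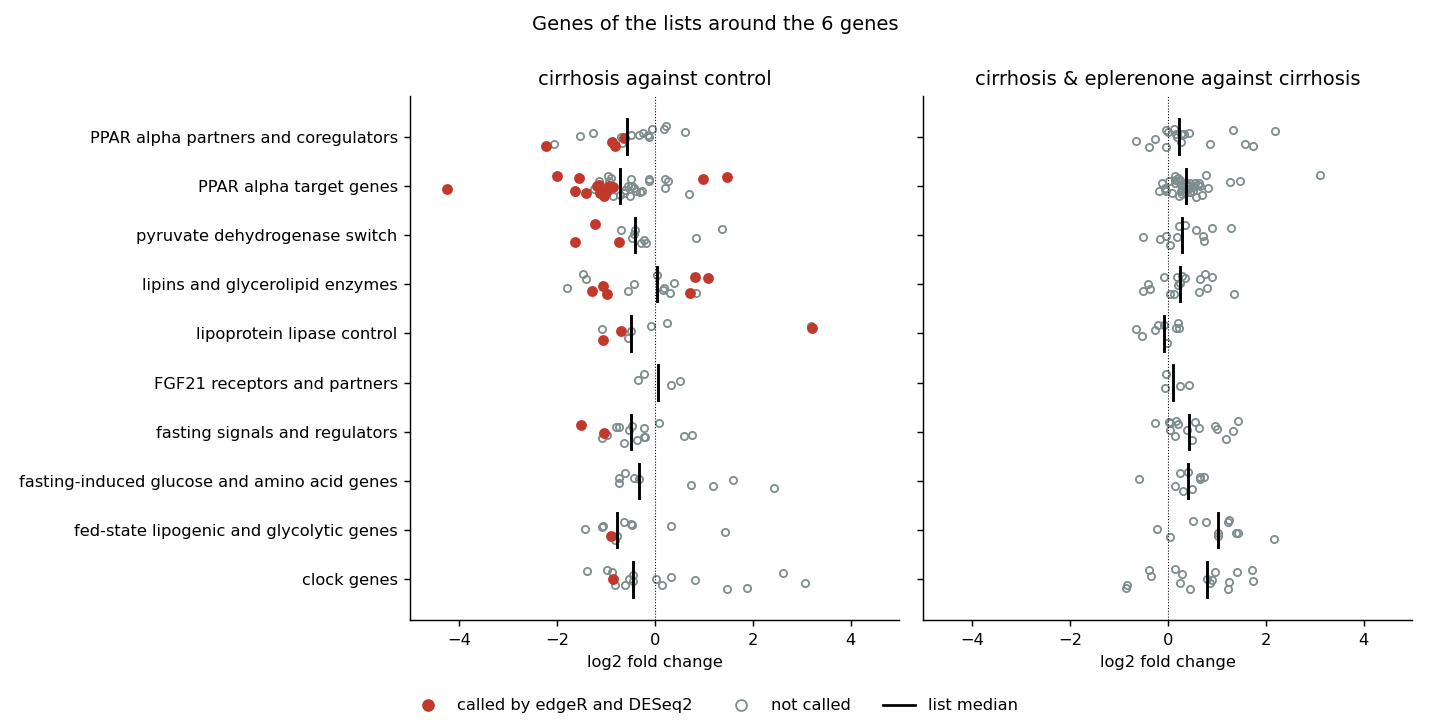
Log2 fold change of every tested gene of the 10 lists in cirrhosis against control (left) and cirrhosis & eplerenone against cirrhosis (right), with filled points for genes called by edgeR and DESeq2 and bars for list medians. On the left 28 genes are called lower and 6 higher, and on the right no gene is called. There 119 of 152 genes lie above 0, against 51.0% of all genes, which is not a like baseline. The panels share the cirrhosis rats, and 110 of the 152 genes lie below 0 on the left.

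Other cell types moved with the comparison as well. In cirrhosis against control, 6 of 7 cholangiocyte markers and 5 of 7 stellate cell and myofibroblast markers were called higher, 2 of 5 lymphocyte markers higher, 1 of 10 hepatocyte markers lower, 1 of 7 macrophage markers lower and 1 of 5 endothelial markers lower. The hepatocyte call was Hnf4a, the same gene as among the partners of PPAR alpha. It was lost with total counts, where 1 hepatocyte marker was called higher. With 4 rats per group 4 hepatocyte markers were called lower and 1 higher, and 2 macrophage markers lower and 2 higher. In those rats 3 stellate cell markers were called lower and 1 higher with eplerenone against cirrhosis, against 4.8% and 4.42% of all genes. For cirrhosis against control, 6.72% of all genes were called lower and 13.8% higher in the main fit. These shares were 2.47% and 21.7% with total counts, and 14.9% and 19.7% with 4 rats per group. The summed level of cholangiocyte markers was 30.3 to 40.7 FPM in control, 69.3 to 161 FPM in cirrhosis and 67.3 to 117 FPM in cirrhosis & eplerenone. The summed level of stellate cell markers was 144 to 242 FPM, 260 to 538 FPM and 390 to 532 FPM. Of 5 markers of skeletal muscle, in which Pdk4 is abundant, 1 was tested and called higher in cirrhosis. Acta1, Myh4 and Mb were at 0 in every control, and the summed level was 0.0578 to 0.905 FPM in control, 0.952 to 3.44 FPM in cirrhosis and 0.511 to 1.86 FPM in cirrhosis & eplerenone. The part of cell composition in the levels of the 6 genes was not tested.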

How the data were processed

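Liver RNA of 14 rats was analysed, and samples were grouped by the treatment in the sample labels. Per the labels and the study's methods, the authors sequenced poly(A) RNA in read pairs, mapped it to rn6 with HISAT2 2.1.0 and counted reads per gene over exons with featureCounts, multi-mapped reads included. Whether counting used strand is not given in the sources used here. The deposited values are raw counts with no normalization. The numbers printed as FPM, fold changes and tests were computed from them here.

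The 6 genes and the gene lists were chosen with earlier results of these data known, and the lists come from general knowledge. Counts were filtered with filterByExpr (smallest count 10), which left 14417 genes, and scaled by TMM. edgeR 4.0.16 (quasi-likelihood test) and DESeq2 1.42.0 (Wald test), run in R 4.3.3, each took the 3 groups together. Each SE was computed as the absolute log2FC divided by the square root of the test statistic F of edgeR. For Ppara, Lpin1 and Pdk4 the SE is a description and not a test, since their values chose the set. Benjamini-Hochberg adjustment covered the whole set of tested genes. A gene was called at an adjusted p below 0.05 in both tools, and calls were counted over 13628 protein coding genes. Log2 FPM used a prior count of 2, and a mean of at least 1 FPM was required for the search of like patterns. The fits were tested on simulated data. Counted reads per sample limit precision to 0.121 to 0.191 FPM for 3 counts, and replicates are separate rats.

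Genes were named by rule: the 6 genes, and from each list up to 4 called genes with the largest absolute log2FC in cirrhosis against control and the 2 with the smallest p for cirrhosis & eplerenone against cirrhosis. Rxra, the other Pdk and Lpin genes, Angptl8, Klb and Fgfr4 were always named, as were the 5 genes most like Ppara, Lpin1 and Pdk4. Some genes that the rule names are not reported here. Promoter windows came from RefSeq on GRCr8, and motifs from general knowledge were searched on both strands. Alternatives changed scaling, filter, samples, model and block, and left out each rat in turn.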

Additional observations from a re-analysis of the deposited data

Results flagged for a closer look

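In 18 sets of FPM, 1 for each of the 6 genes in each group, 4 held a rat past Dixon's limit. That limit flags about 1 set in 20 by chance when values are normally distributed. It was applied to FPM and not to log2 FPM, and all 4 rats were the highest of their set. The flags therefore describe values on the FPM scale and are not a count beyond chance. Control replicate 3 had 70.8 FPM of Lpin1, and its fed-state lipogenic genes were also the highest among controls. Control replicate 5 had 59.0 FPM of Pdk4, with the other controls at 23.3 to 28.1 FPM. Cirrhosis & eplerenone replicate 3 had 30.03 FPM of Fgf21, and in this rat Pdk4 was at 2.95 FPM. Cirrhosis replicate 5 had 148 FPM of Angptl4, with the other cirrhotic rats at 2.49 to 33.4 FPM, and it also had the highest Fgf21 (18.4 FPM), Lpin1 (24.3 FPM) and Ppara (3.33 FPM) of its group.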

How the results depend on the processing

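The number of list genes called in cirrhosis against control was 34, and it was 59 with 4 rats per group and 53 by DESeq2 alone. It ranged from 15 to 57 when single rats were left out: 20 without control replicate 3 or 4, 16 without control replicate 5, 20, 17, 15 and 57 without cirrhosis replicates 1, 3, 4 and 5. For cirrhosis & eplerenone against cirrhosis the count was 0, and 29 with 4 rats per group, 2 by DESeq2 alone and 0 to 2 when single rats were left out (2 without cirrhosis replicate 5). For cirrhosis & eplerenone against control it was 6, and 13 with total counts, 13 with only the groups compared in the model, 20 by DESeq2 alone and 1 to 15 when single rats were left out. There it was 3, 3 and 1 without control replicates 3, 4 and 5, 12 and 14 without cirrhosis replicates 4 and 5, and 15 without cirrhosis & eplerenone replicate 2. Of Ppargc1a, Fgf21 and Angptl4, 2 were called in cirrhosis against control and 1 in cirrhosis & eplerenone against cirrhosis with 4 rats per group, and 0 to 2 in the former when single rats were left out. Their log2FC were then -2.28 for Fgf21 and -2.43 for Angptl4, with ranges of -2.31 to -0.69 and -2.45 to -0.83 over single omissions, and 2.54 for Angptl4 with eplerenone. Within the label number 15 the eplerenone difference was 2.99 for Ppara and 3.31 for Angptl4, and within 20 it was 0.60 for Ppara and 0.44 for Pdk4. The cause of these shifts was not tested.

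The called genes in cirrhosis against control numbered 33 with DESeq2 size factors, 31 with total counts, 32 with no filter and 33 with at least 10 counts in every sample. Replicate numbers did not pair the rats: correlations of 13 same-numbered pairs ran from -0.333 to 0.187, 3 were over 0.1, and 0 of 14 rats correlated best with their own number. With the replicate number as a block, 26 genes were called in cirrhosis against control (23 lower, 3 higher), 0 with eplerenone against cirrhosis and 1 against control. Over all protein coding genes the block left 1688, 0 and 260 calls, against 2802, 2 and 726 without it. Scaling by total counts turned the log2FC of Angptl4 in cirrhosis & eplerenone against control to 0.15 and that of Ppargc1a in cirrhosis against control to 0.22, neither of which was called. Of the genes most like Ppara, Lpin1 and Pdk4, 3, 1 and 0 of 5 were shared when controls were left out. Depth limits Ppargc1a most, since 3 counts stood for 0.121 to 0.191 FPM and its lowest rat had 0.205 FPM. The label-number tests called none of Ppargc1a, Fgf21 and Angptl4 under any scaling, filter or single omission, alternatives chosen after seeing the data.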
